A study of Mus musculus with 23 samples.

Results

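The ABC transporters are proteins that bind and split ATP through a shared nucleotide-binding domain, and most of them use that energy to move a substrate across a membrane. Their genes were taken as every entry of the deposited table whose symbol was Abca, Abcb, Abcc, Abcd, Abce, Abcf or Abcg followed by a number and at most 1 further lower-case letter. The pattern gave 48 of the 24716 genes in the table. Of the 48, 43 passed the filter on low counts, among 20189 genes that passed it. The 5 untested members were Abca16, Abca17, Abcc12, Abcg5 and Abcg8, each with a mean below 1 CPM, the counts of a gene scaled to a common library size, in every group. Abca14 and Abca15, which the GENCODE annotation also lists, were not analysed here.

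All libraries were made from ovaries of female mice that the labels give as WT, with no further treatment. The strains were NZO/HlLtJ, an inbred model of obesity and diabetes, CAST/EiJ, derived from wild Mus musculus castaneus, and C57BL/6J, the common laboratory strain. Mice ate either a diet with 44% fat, which was also high in sugar, or a control diet with 10% fat, both with fiber, from the age of 6 weeks until tissue was taken at 15 weeks. The groups were NZO/HlLtJ on 44% fat (n = 4), NZO/HlLtJ on 10% fat (n = 4), CAST/EiJ on 44% fat (n = 4), CAST/EiJ on 10% fat (n = 4), C57BL/6J on 44% fat (n = 4) and C57BL/6J on 10% fat (n = 3). Fat and sugar changed together, so their effects cannot be told apart. The labels do not say that the libraries of a group came from separate animals, so p-values measure only the spread between these libraries, which may be technical.

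The family falls into 7 subfamilies, A to G, by sequence. Many A and G members carry lipids: Abca1 and Abcg1 pass cholesterol out of cells to lipoproteins, a route that also returns cholesterol to the liver. Members of B and C include pumps that clear drugs and steroid conjugates from cells, such as the P-glycoproteins Abcb1a and Abcb1b, and carriers of the mitochondrial membrane. The D members sit in peroxisomes or lysosomes, and the E and F members have no membrane part and act in translation. In the ovary, luteal, theca and granulosa cells take up lipoprotein cholesterol to make steroids, and macrophages handle lipids from dying cells.

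The 23 libraries held 31938792 to 45850830 counts each. The defining markers of the labelled tissue were present in every library: the oocyte list summed to at least 90.4 CPM and the granulosa cell list to at least 1133 CPM. 2 libraries stood apart by markers of the oviduct, which lies next to the ovary. The oviduct list summed to 5199 CPM in CAST/EiJ 10% fat replicate 2 and to 255 CPM in C57BL/6J 44% fat replicate 1, against 18.2 to 71.4 CPM in the other libraries. C57BL/6J 10% fat replicate 2 had the highest granulosa cell sum, at 4501 CPM, against 1467 and 1577 CPM in the other libraries of its group. The library identifiers fall into 3 series, 76, 82 and 90, which no label calls a batch.

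The first sequences shown are coding bases of the 3 neighbouring Abcb genes on chromosome 5, because their values differ while their sequences are close and reads could be shared between them. Each is 60 bases, 5′ to 3′, of the longest open reading frame of the GENCODE M21 transcripts of GRCm38. Capitals mark the first Walker A motif, the loop that holds the phosphates of ATP.
Abcb1b: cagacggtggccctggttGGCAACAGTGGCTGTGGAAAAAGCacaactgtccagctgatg
Abcb1a: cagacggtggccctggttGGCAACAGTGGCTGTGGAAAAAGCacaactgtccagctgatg
Abcb4: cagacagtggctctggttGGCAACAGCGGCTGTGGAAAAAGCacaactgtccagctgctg
Over these 60 bases Abcb1b and Abcb1a differed at 0 positions, and Abcb4 differed from each of them at 4. Over the whole reading frame Abcb1a and Abcb1b were 89.3% identical, and Abcb4 was 79.7% identical to Abcb1a and 79.0% to Abcb1b. Of all stretches of 50 bases in their transcripts, 16.3% of those of Abcb1a also occurred in Abcb1b, and 11.1% of those of Abcb1b also occurred in Abcb1a. How the authors' counting divided reads from such stretches is not given in the sources used here. Values of Abcb1a and Abcb1b are therefore uncertain, and these shares do not bound the error.

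The promoter of Abcb1b is shown because this gene had the widest range of levels among the members with at least 1 CPM in a group. The window spans the annotated start site, on the plus strand of chr5:8797897-8798196 in RefSeq's GRCm38.p6. Capitals mark matches to the CCAAT box (CCAAT, or ATTGG on the other strand) and the GC box (GGGCGG), neither of which overlaps another match.
Abcb1b promoter: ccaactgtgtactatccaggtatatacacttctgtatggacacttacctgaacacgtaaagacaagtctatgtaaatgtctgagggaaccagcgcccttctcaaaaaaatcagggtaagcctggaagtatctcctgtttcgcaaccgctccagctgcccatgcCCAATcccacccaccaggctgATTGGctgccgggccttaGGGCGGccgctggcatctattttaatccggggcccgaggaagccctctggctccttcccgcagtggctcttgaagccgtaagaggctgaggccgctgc
A CCAAT match began 87 bases before the start site, a second one on the other strand 66 bases before it, and a GC box match 48 bases before it. CCAAT was in 37.4% and GGGCGG in 35.7% of all 32851 promoter windows of this length on either strand. Among the 43 windows of the 36 members that matched the RefSeq table, 15 held CCAAT and 21 held GGGCGG. These matches are letters in a window and say nothing of binding.

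Abca1 had the highest level per length, at a mean of 95.05 CPM per kb of exon over all libraries. On the same scale Abcb1b followed at 33.2, the translation factors Abcf2, Abce1 and Abcf1 at 28.1, 27.8 and 25.5, and the organic anion pump Abcc5 at 17.0. 10 members stayed below 1 CPM on average in every group, among them the intestinal and liver sterol transporters Abcg5 and Abcg8 and the bile salt pump Abcb11. Between the lowest and the highest of the 6 group means, Abcb1b spanned 139-fold, Abcg3 15.8-fold, Abca8b 7.57-fold and Abcd2 7.40-fold. Abcf3, Abcc5, Abcd3 and Abcf1 spanned 1.08-fold, 1.09-fold, 1.10-fold and 1.11-fold. Summed over the 48 members, the level per kb of exon was 355 and 378 in NZO/HlLtJ on 44% and 10% fat, 461 and 393 in CAST/EiJ, and 364 and 478 in C57BL/6J. Abca1 alone gave 81.7 and 86.4 of this in NZO/HlLtJ, 160 and 119 in CAST/EiJ, and 52.1 and 62.8 in C57BL/6J. The sums were not tested, and that of C57BL/6J on 10% fat includes the libraries very high in Abcb1b given below.

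**Figure D1:**
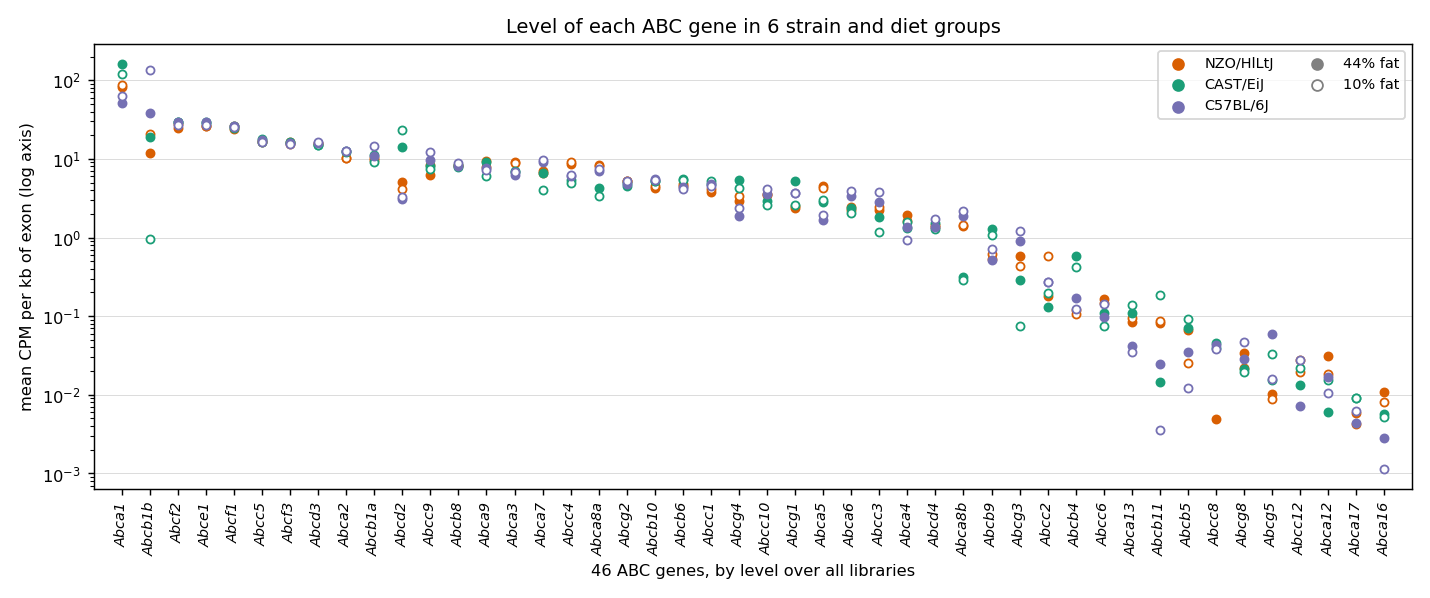
Mean CPM per kb of exon (log axis) of 46 of the 48 ABC genes in the 6 strain and diet groups, ordered by the mean over all 23 libraries; a group in which every library had 0 counts has no point. Abca1 is at 95.05 over all libraries, and the points of Abcb1b spread over 139-fold while those of Abcf3 lie within 1.08-fold.

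Diet was compared within each strain by edgeR's quasi-likelihood test with Benjamini-Hochberg adjustment over all genes tested, and a call means an adjusted p under 0.05. In CAST/EiJ ovaries 3 of the 43 tested members rose on 44% fat and 0 fell: Abcb1b, Abcg3 and Abcg1. Calls were made for 0.624% of all genes in that comparison, 0.525% higher and 0.0991% lower. The median log2 fold change was 0.11 over the members and -0.02 over all genes. In NZO/HlLtJ and in C57BL/6J 0 members were called, as were 0% of all genes, while 3 and 5 members had an unadjusted p under 0.05. DESeq2 also called 0 members in either of those strains. In bulk ovary, fewer cells of a type and less RNA per cell cannot be told apart, and this holds for each difference below.

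Abcb1b, one of the pair of mouse genes for P-glycoprotein, an efflux pump for drugs and steroids, rose most. CAST/EiJ ovaries had 155, 38.6, 341 and 71.8 CPM on 44% fat, against 7.93, 11.6, 7.82 and 3.39 CPM on 10% fat. The groups did not overlap, which held for 5.88% of all genes and for 9 members. The log2 fold change was 4.30 ± 0.831 (SE), or 19.8-fold, with an adjusted p of 0.0219. Within identifier series 76 the 44% fat library had 155 CPM and the 10% fat library 7.93 CPM. Series 82 had 38.6 and 341 CPM on 44% fat against 11.6 CPM on 10% fat, and series 90 had 71.8 CPM against 7.82 and 3.39 CPM. Without CAST/EiJ 44% fat replicate 3 the log2 fold change was 3.53 (adjusted p = 0.0516), and without both libraries high in oviduct markers it was 4.57 (adjusted p = 0.0593).

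In the other strains Abcb1b did not pass the test of diet. NZO/HlLtJ ovaries had 115, 134, 25.7 and 103 CPM of Abcb1b on 44% fat, against 54.7, 162, 334 and 114 CPM on 10% fat. C57BL/6J ovaries had 261, 354, 252 and 346 CPM on 44% fat, against 1684, 97.3 and 1419 CPM on 10% fat. In C57BL/6J, 2 of the 3 libraries on 10% fat were above all others of the series, and the third, replicate 2, was below the whole 44% fat group. The log2 fold change was -0.82 ± 0.722 in NZO/HlLtJ (adjusted p = 1) and -1.82 ± 0.774 in C57BL/6J (adjusted p = 0.524). The difference between the diet effects of CAST/EiJ and C57BL/6J was itself 6.12 ± 1.12 on the log2 scale (SE, adjusted p = 0.0233), and that between NZO/HlLtJ and CAST/EiJ was -5.12 ± 1.08 (adjusted p = 0.119, and 0.000885 by DESeq2). In the first of these comparisons 2 members were called, Abcb1b and Abcg3, both higher, beside 0.614% of all genes, 0.565% higher and 0.0495% lower. In the second 0 members were called, beside 0.0149% of all genes. The first call of Abcb1b was lost in 9 of 30 alternatives, with an adjusted p of up to 0.0929.

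Abcb1a, the other P-glycoprotein gene, lies next to Abcb1b and varied far less. NZO/HlLtJ ovaries held 58.6, 54.6, 42.4 and 54.4 CPM of Abcb1a on 44% fat and 63.3, 46.7, 64.3 and 53.7 CPM on 10% fat. CAST/EiJ ovaries held 57.9, 60.8, 68.8 and 56.6 CPM on 44% fat and 40.9, 50.4, 57.4 and 51.4 CPM on 10% fat. C57BL/6J ovaries held 60.97, 59.6, 60.3 and 59.9 CPM on 44% fat and 100.4, 50.5 and 91.8 CPM on 10% fat. As with Abcb1b, replicates 1 and 3 of the C57BL/6J 10% fat group were the highest libraries of the series and replicate 2 stood below them. Abcb1b was far above Abcb1a in replicates 1 and 3, and how reads of their shared stretches were divided there was not tested. Abcb1a did not pass the test of diet in any strain, with log2 fold changes of -0.12, 0.29 and -0.43 in NZO/HlLtJ, CAST/EiJ and C57BL/6J. Without C57BL/6J 10% fat replicate 2, it was called lower on 44% fat in C57BL/6J, at -0.68 (adjusted p = 0.0183).

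**Figure D2:**
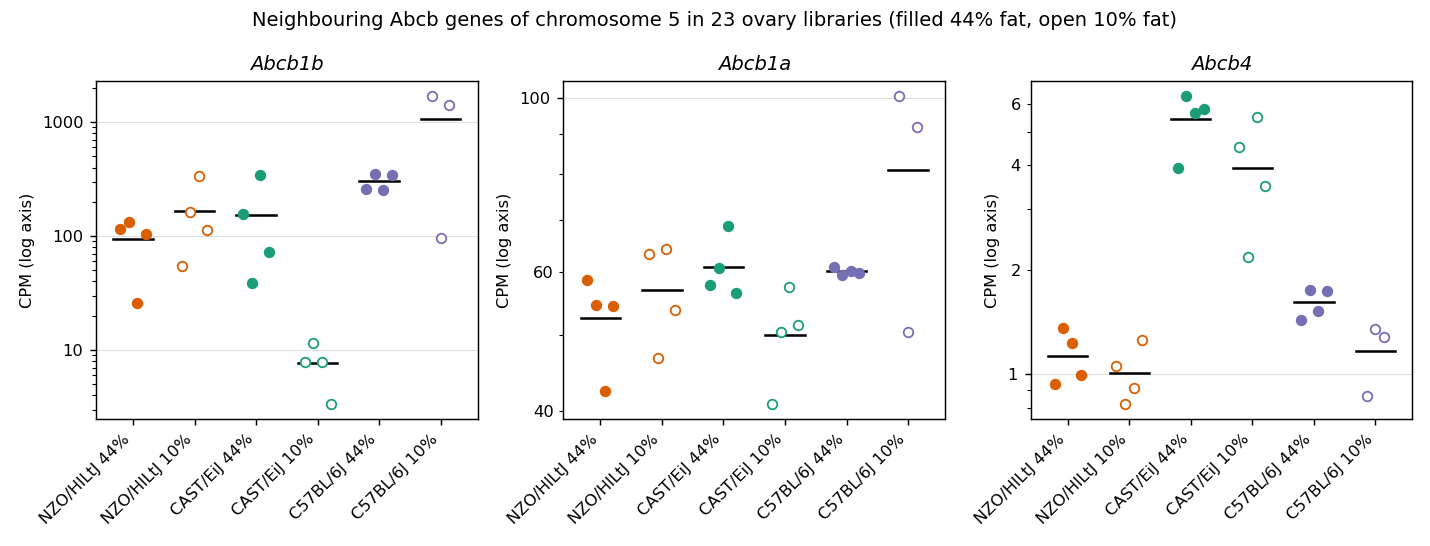
CPM (log axis) of Abcb1b, Abcb1a and Abcb4 in each library by strain and diet; filled points are 44% fat, open points 10% fat, and lines are group means. Abcb1b is between 3.39 and 11.6 CPM in CAST/EiJ on 10% fat and above all of these in CAST/EiJ on 44% fat, while Abcb1a stays between 40.9 and 100.4 CPM in all 23 libraries.

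Among the sterol transporters, Abcg1 (chr17:31057698-31115777, plus strand, GRCm38), which loads cellular cholesterol onto high-density lipoprotein, rose in CAST/EiJ. Its libraries had 32.5, 57.3, 29.8 and 32.1 CPM on 44% fat, against 15.98, 18.4, 19.8 and 20.7 CPM on 10% fat. The groups did not overlap, and replicate 2 of the 44% fat group was the highest library. The log2 fold change was 1.02 ± 0.194 (SE), or 2.02-fold, with an adjusted p of 0.0193. Without that library it was 0.75, with an adjusted p of 0.0636. In NZO/HlLtJ, Abcg1 had 16.03, 18.3, 16.4 and 18.9 CPM on 44% fat and 15.7, 15.1, 18.5 and 24.6 CPM on 10% fat, and in C57BL/6J 23.3, 26.99, 30.4 and 27.7 CPM on 44% fat and 31.5, 28.8 and 19.3 CPM on 10% fat. Neither strain passed the test, and the difference of the diet effect in CAST/EiJ from that in C57BL/6J was 0.99 ± 0.282 (adjusted p = 0.0889, and 0.0276 by DESeq2).

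Abca1 (chr4:53030787-53159895, minus strand), which passes cholesterol and phospholipid to apolipoprotein A-I, did not pass the test of diet in any strain. CAST/EiJ ovaries carried 1741, 1442, 1939 and 1499.9 CPM on 44% fat and 1049, 1944, 937 and 1022 CPM on 10% fat. In this last group replicate 2, the library with the highest oviduct marker sum, was the highest and the other 3 were below every 44% fat library. The log2 fold change in CAST/EiJ was 0.42 ± 0.261 (adjusted p = 0.53), and 0.72 without that library (adjusted p = 0.175). NZO/HlLtJ ovaries carried 915, 999, 503 and 969 CPM on 44% fat and 863, 596, 1329 and 795 CPM on 10% fat. C57BL/6J ovaries carried 469, 569, 544 and 576 CPM on 44% fat and 632, 467 and 854 CPM on 10% fat.

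Abcg4, a close relative of Abcg1 best known from the brain, also did not pass the test of diet in any strain. CAST/EiJ ovaries contained 33.7, 28.2, 20.2 and 30.4 CPM on 44% fat and 23.5, 11.7, 35.2 and 19.2 CPM on 10% fat, with replicate 2 of the 10% fat group the lowest of these. NZO/HlLtJ ovaries contained 12.6, 17.1, 15.4 and 16.4 CPM on 44% fat and 15.99, 18.7, 18.3 and 16.9 CPM on 10% fat. C57BL/6J ovaries contained 8.97, 10.3, 7.44 and 11.9 CPM on 44% fat and 13.2, 11.5 and 11.9 CPM on 10% fat. Every CAST/EiJ library but 1 was thus above every library of the other strains. Abcg5 and Abcg8, whose products pair to expel sterols from gut and liver cells, were near the limit of counting. Abcg5 had 2, 1, 0 and 1 counts in NZO/HlLtJ on 44% fat and 2, 1, 0 and 1 on 10% fat, 1, 3, 0 and 2 in CAST/EiJ on 44% fat and 0, 3, 9 and 2 on 10% fat, and 12, 6, 6 and 2 in C57BL/6J on 44% fat and 2, 2 and 1 on 10% fat. Abcg8 had 0 to 16 counts in each of the 23 libraries. These 2 genes overlap on opposite strands, and no difference between groups was tested at this depth.

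Abcg3 (chr5:104935057-104982718, minus strand), a rodent relative of the drug pump Abcg2, had the smallest adjusted p of the 3 calls in CAST/EiJ. CAST/EiJ ovaries showed 0.851, 1.74, 0.701 and 0.849 CPM on 44% fat, against 0.258, 0.299, 0.199 and 0.315 CPM on 10% fat. NZO/HlLtJ ovaries showed 2.58, 2.25, 1.23 and 2.26 CPM on 44% fat, against 1.61, 1.37, 1.61 and 1.54 CPM on 10% fat. C57BL/6J ovaries showed 2.73, 3.04, 3.07 and 3.85 CPM on 44% fat, against 4.74, 5.32 and 2.65 CPM on 10% fat. The CAST/EiJ diet groups did not overlap, while the other strains' did. The log2 fold change in CAST/EiJ was 1.94 ± 0.312 (SE), or 3.83-fold, with an adjusted p of 0.0107, and its difference from that in C57BL/6J was 2.36 ± 0.425 (adjusted p = 0.0195). Both calls rest on low counts, with no CAST/EiJ library above 1.74 CPM. By limma on the deposited log2 values both were lost, at 0.41 (adjusted p = 0.103) and 0.61 (adjusted p = 0.0923). With only the CAST/EiJ groups in the fit 0 members were called, with adjusted p of 0.201 for Abcb1b, 0.244 for Abcg1 and 0.211 for Abcg3. Abcg2 itself, which also pumps drugs and steroid conjugates, was at 34.9 to 39.7 CPM in CAST/EiJ on 44% fat and 32.4 to 56.02 CPM on 10% fat, with a log2 fold change of -0.14 ± 0.120 (adjusted p = 0.685).

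**Figure D3:**
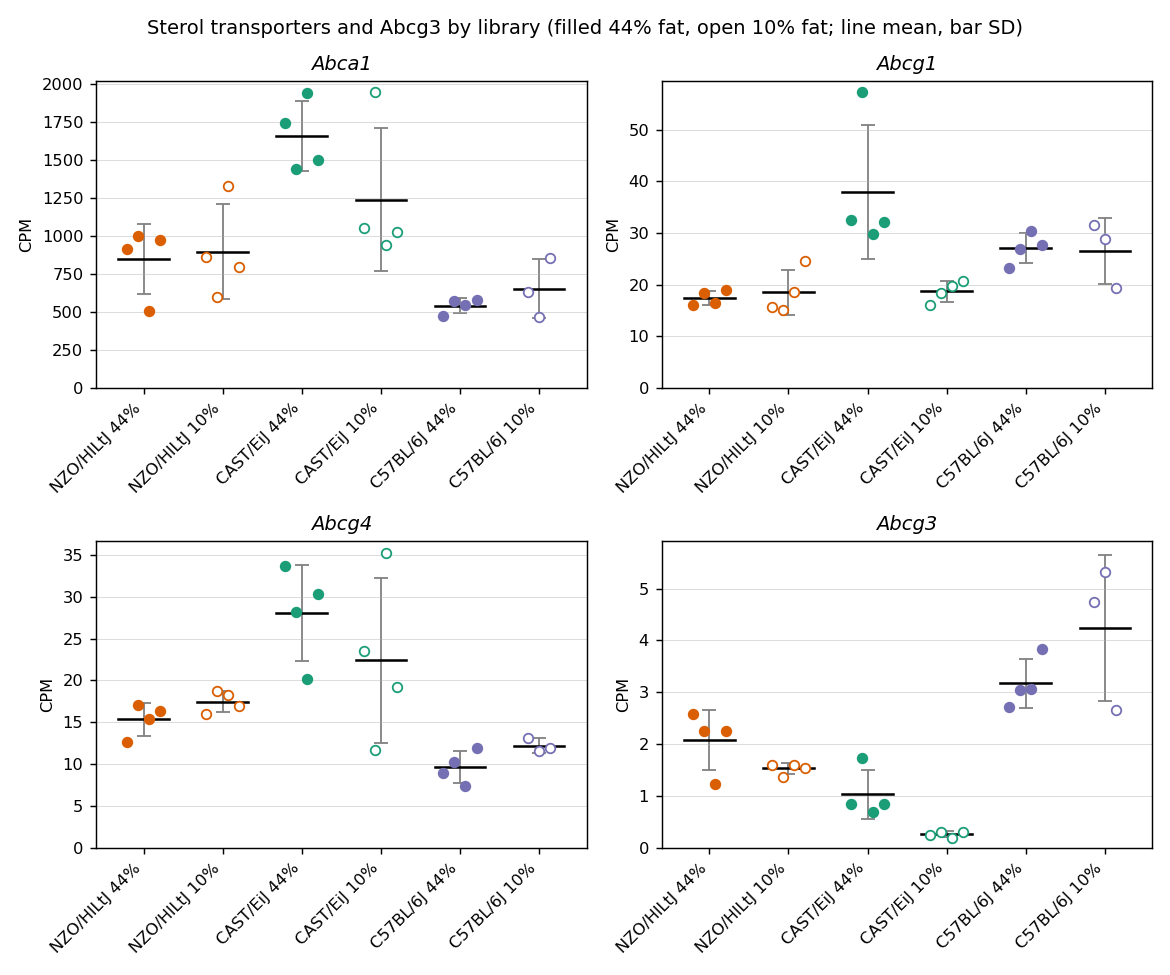
CPM of Abca1, Abcg1, Abcg4 and Abcg3 in each library by strain and diet; filled points are 44% fat, open points 10% fat, lines are group means and grey bars 1 SD. In CAST/EiJ, Abcg1 is at 29.8 to 57.3 CPM on 44% fat and 16.0 to 20.7 CPM on 10% fat, and Abcg3 at 0.701 to 1.74 and 0.199 to 0.315 CPM.

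Partner genes of sterol efflux were read for diet in CAST/EiJ. There 0.525% of all genes were called higher and 0.0991% lower, with a median log2 fold change of -0.02. Of 23 tested genes for cholesterol uptake, storage, efflux and its regulation, 2 rose on 44% fat and 0 fell, with a median of 0.27. These were the lysosomal lipase Lipa, at 0.74 (adjusted p = 0.0219), and Apoe, the apolipoprotein that macrophages and steroid-making cells secrete, at 0.70 (adjusted p = 0.0421). The phospholipid transfer protein Pltp was at 0.61 (adjusted p = 0.0607) and the lipoprotein receptor Scarb1 at 0.90 (adjusted p = 0.0792). In the lists of drug carriers, peroxisomal partners, mitochondrial partners, peptide loading, translation partners and potassium channels, 0 genes were called in that comparison.

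Markers of cell types were read in the same comparison, where 0.525% of all genes were called higher and 0.0991% lower. In the cell type lists other than macrophages and luteal cells, 0 genes were called. Median log2 fold changes of those lists ran from -2.90 for oviduct epithelium and -1.41 for white adipocytes to 0.14 for endothelium. In CAST/EiJ on 44% fat, 7 of 12 macrophage markers rose and 0 fell, with a median log2 fold change of 0.88, against 0.03 in NZO/HlLtJ and -0.26 in C57BL/6J. The list summed to 751 to 1912 CPM on 44% fat, highest in replicate 2, and to 393 to 524 CPM on 10% fat. Of 9 luteal markers, 1 rose in CAST/EiJ, the steroid-forming enzyme Cyp11a1, at 1.35 (adjusted p = 0.0219), and all 9 had positive log2 fold changes. The luteal list summed to 11571 to 13834 CPM on 44% fat and 5879 to 8046 CPM on 10% fat. None of the defining markers of either list was at 0 in either group, and their part in the changes of Abcb1b, Abcg1 and Abcg3 was not tested.

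The remaining members did not pass the test of diet in CAST/EiJ. The smallest adjusted p among them was that of Abcc3: this gene, for a pump of bile salts and glucuronides, had 11.2, 10.8, 10.1 and 9.37 CPM on 44% fat and 4.32, 7.82, 6.48 and 7.96 CPM on 10% fat, without overlap (log2 fold change 0.64 ± 0.174, adjusted p = 0.0914). Abca9 and Abca7 also had diet groups without overlap, with log2 fold changes of 0.58 ± 0.187 (adjusted p = 0.146) and 0.68 ± 0.230 (adjusted p = 0.17). Abcd2, a peroxisomal carrier of very long chain fatty acids, had 103, 50.7, 41.7 and 139.97 CPM on 44% fat and 149.9, 133, 126 and 140.1 CPM on 10% fat (log2 fold change -0.71 ± 0.273, adjusted p = 0.235). The mitochondrial members Abcb8 and Abcb10 and the translation members Abce1, Abcf1, Abcf2 and Abcf3 had log2 fold changes between -0.05 and 0.11. Averaged over the 3 strains, 0 of the 43 members were called for diet, as were 0% of all genes, while 6 members had an unadjusted p under 0.05.

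**Figure D4:**
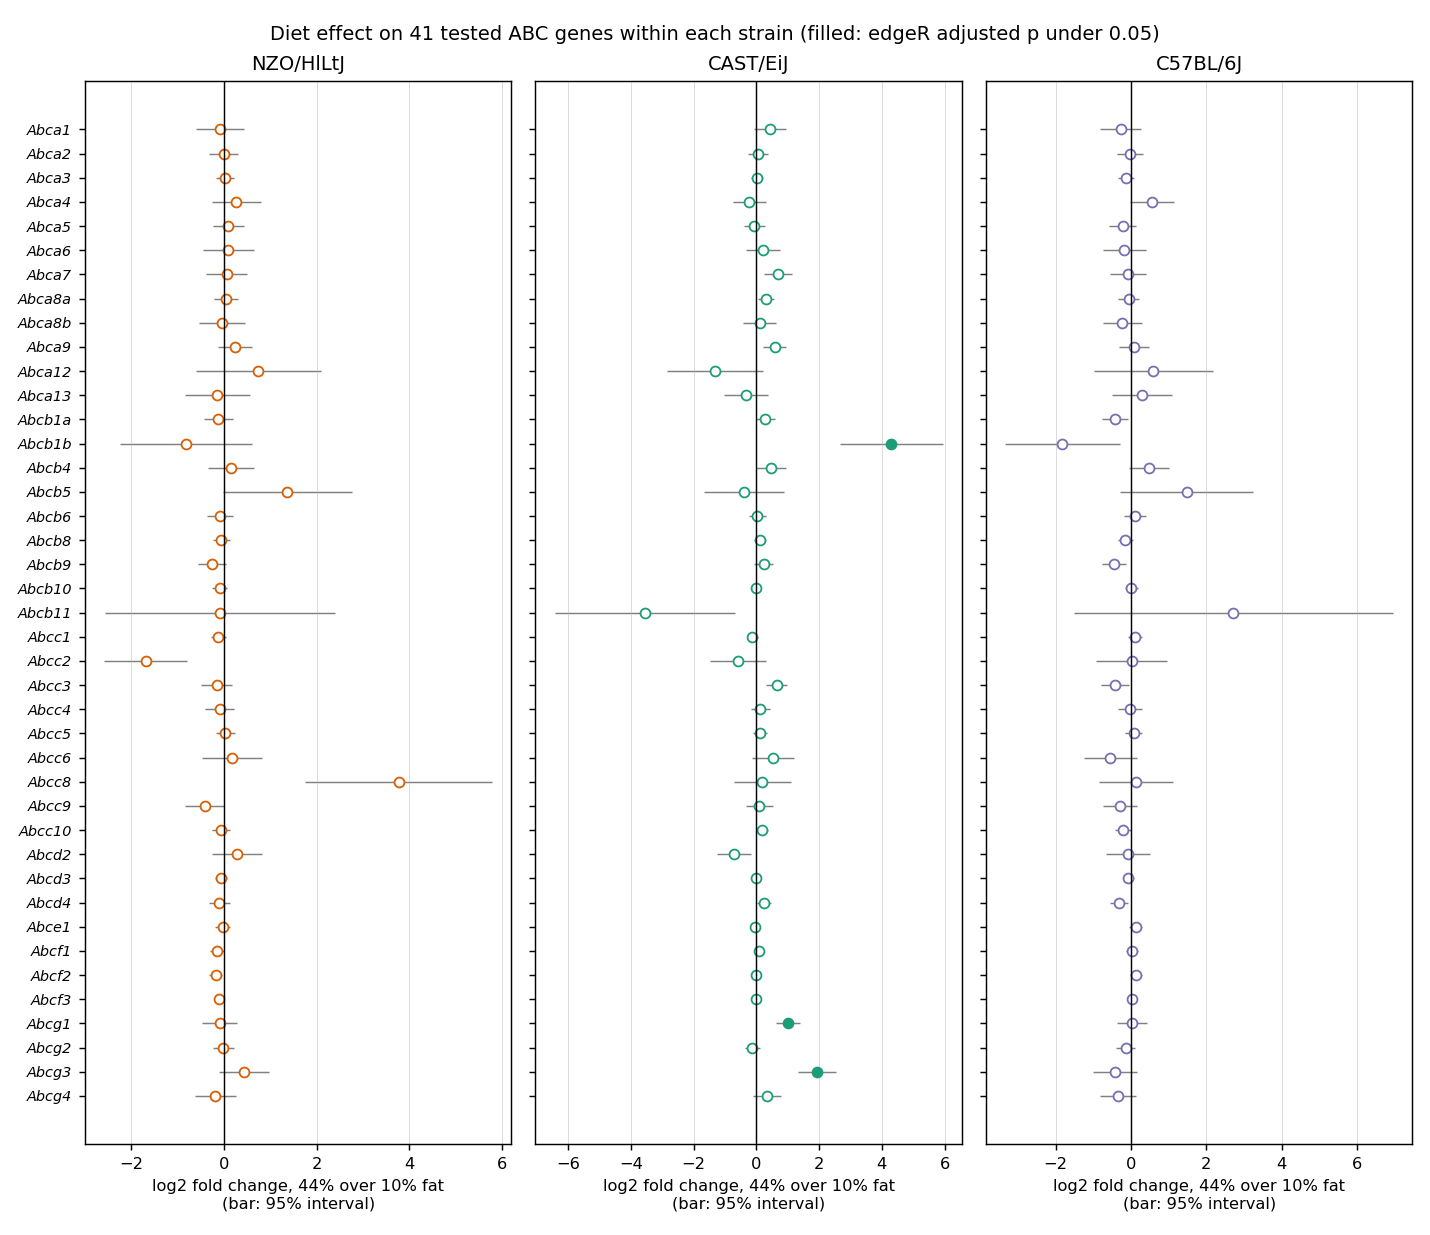
Log2 fold change of 44% over 10% fat for 41 of the 43 tested ABC genes in NZO/HlLtJ, CAST/EiJ and C57BL/6J. Bars are approximate 95% intervals, and each panel has its own horizontal axis. Filled points pass an edgeR adjusted p of 0.05, which only Abcb1b, Abcg1 and Abcg3 do, in CAST/EiJ.

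Strains were compared as the mean of both diets. CAST/EiJ differed from C57BL/6J in 21 of the 43 members, 9 higher and 12 lower, or 48.8%, beside 46.8% of all genes. NZO/HlLtJ differed from C57BL/6J in 20 members, 7 higher and 13 lower, or 46.5%, beside 23.9% of all genes. NZO/HlLtJ differed from CAST/EiJ in 25 members, 12 higher and 13 lower, or 58.1%, beside 48.1% of all genes. The median log2 fold change over the members was -0.02, -0.04 and 0.01 in these comparisons, and 0.01, 0.00 and -0.02 over all genes. Without overlap between the strains were 11, 5 and 10 members, beside 15.9%, 7.79% and 16.8% of all genes. Unless a unit is given, values below are log2 fold changes with their SE and edgeR's adjusted p. The comparisons share libraries of each strain and are given side by side. Whether reads of CAST/EiJ and NZO/HlLtJ were mapped and counted as fully as those of C57BL/6J was not tested, and this bears on each strain difference below.

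The P-glycoprotein region of chromosome 5 held the largest strain difference among members with at least 1 CPM in a group. In GRCm38, Abcb1a lies at chr5:8660077-8748575, Abcb1b at chr5:8798147-8866315 and Abcb4 at chr5:8893717-8959231, all on the plus strand. Abcb1b was lower in CAST/EiJ than in C57BL/6J, at -4.06 ± 0.584 or 16.6-fold (adjusted p = 1.23e-05), and lower in NZO/HlLtJ, at -2.18 ± 0.540 or 4.54-fold (adjusted p = 0.00592). The first value averages unlike diets, whose effect on Abcb1b differed between these strains as given above. On 44% fat Abcb1b averaged 152 ± 136 CPM in CAST/EiJ (SD, n = 4) and 303 ± 54.3 CPM in C57BL/6J (SD, n = 4), and on 10% fat 7.68 ± 3.36 CPM in CAST/EiJ (n = 4) and 1067 ± 850.2 CPM in C57BL/6J (n = 3). Single libraries of the strains overlapped in both comparisons. Abcb1a, its neighbour upstream, was lower too, at -0.34 ± 0.117 in CAST/EiJ (adjusted p = 0.0226) and -0.35 ± 0.117 in NZO/HlLtJ (adjusted p = 0.0334). The calls of Abcb1a were lost in 2 and 11 of 30 alternatives, among them without C57BL/6J 10% fat replicate 1, where the values were -0.24 (adjusted p = 0.107) and -0.25 (adjusted p = 0.155). The limit on reads shared with Abcb1b, given above, bears on both calls of Abcb1a. Abcb4, the next gene along and the phospholipid floppase of bile, was higher in CAST/EiJ. Of the exon bases of Abcb1a, 10.1% overlap the opposite-strand gene Gm42686.

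NZO/HlLtJ ovaries yielded 0.940, 1.36, 1.23 and 0.997 CPM of Abcb4 on 44% fat and 1.06, 0.824, 0.912 and 1.26 CPM on 10% fat. CAST/EiJ ovaries yielded 3.92, 6.31, 5.64 and 5.82 CPM on 44% fat and 4.50, 2.17, 5.51 and 3.50 CPM on 10% fat. C57BL/6J ovaries yielded 1.44, 1.75, 1.52 and 1.73 CPM on 44% fat and 0.868, 1.35 and 1.28 CPM on 10% fat. All 8 CAST/EiJ libraries were above all libraries of both other strains. Abcb4 was 3.36-fold higher in CAST/EiJ than in C57BL/6J, at 1.75 ± 0.187 (adjusted p = 1.89e-07), and 4.30-fold lower in NZO/HlLtJ than in CAST/EiJ, at -2.11 ± 0.179 (adjusted p = 6.66e-09). Of 15 tested receptors and other drug carriers, 4 were higher and 4 lower in CAST/EiJ than in C57BL/6J. Of all genes, 23.2% were higher and 23.6% lower in that comparison. The list included the organic cation carriers Slc22a3 at 3.27 (adjusted p = 1.86e-06) and Slc47a1 at -3.38 (adjusted p = 3.23e-06).

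The sterol transporters Abca1 and Abcg4 were higher in CAST/EiJ than in C57BL/6J. Abca1 was 2.42-fold higher, at 1.27 ± 0.197 (adjusted p = 2.57e-05), and all 8 CAST/EiJ libraries, at 937 to 1944 CPM, were above all 7 C57BL/6J libraries, at 467 to 854 CPM. Abcg4 was 2.31-fold higher, at 1.21 ± 0.171 (adjusted p = 8.15e-06). In NZO/HlLtJ against C57BL/6J, Abcg4 was higher by 0.59 ± 0.169 (adjusted p = 0.0141) and Abca1 by 0.55 ± 0.193 (adjusted p = 0.042), a call that 11 of 30 alternatives lost, with an adjusted p of up to 0.0960. Abcg1 was lower in NZO/HlLtJ than in C57BL/6J, at -0.58 ± 0.141 (adjusted p = 0.005), and lower than in CAST/EiJ, at -0.57 ± 0.137 (adjusted p = 0.00177). Between CAST/EiJ and C57BL/6J Abcg1 was at -0.01 ± 0.141 (adjusted p = 0.964). Both comparisons with CAST/EiJ average diets that differed in that strain: on 44% fat Abcg1 averaged 17.4 ± 1.41 CPM in NZO/HlLtJ and 37.9 ± 12.98 CPM in CAST/EiJ, and on 10% fat 18.5 ± 4.35 CPM in NZO/HlLtJ and 18.7 ± 2.06 CPM in CAST/EiJ (SD, n = 4 each). Of the 23 sterol partners, 3 were higher and 6 lower in CAST/EiJ than in C57BL/6J, beside 23.2% and 23.6% of all genes. In NZO/HlLtJ against C57BL/6J, 1 was higher and 7 lower, beside 11.6% and 12.3% of all genes. The lower ones in NZO/HlLtJ included the lysosomal cholesterol exporter Npc1 at -0.47 (adjusted p = 5.96e-06). The same comparison had 7 of 12 macrophage and 3 of 9 luteal markers lower and 0 higher. Against CAST/EiJ, 4 macrophage markers were higher and 5 lower in NZO/HlLtJ, and 3 luteal markers higher and 1 lower, beside 23.4% and 24.8% of all genes. The part of these markers in the Abcg1 differences was not tested.

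Abcg3 was lower in both strains than in C57BL/6J, at -2.80 ± 0.218 or 6.94-fold in CAST/EiJ (adjusted p = 2.06e-09) and at -1.04 ± 0.202 or 2.05-fold in NZO/HlLtJ (adjusted p = 0.000758). All 8 CAST/EiJ and all 8 NZO/HlLtJ libraries were below all 7 C57BL/6J libraries. Its relative Abcg2, with 73.4% of coding bases identical to it, was at -0.06 ± 0.0882 in CAST/EiJ (adjusted p = 0.607) and 0.08 ± 0.0883 in NZO/HlLtJ (adjusted p = 0.537) against C57BL/6J.

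**Figure D5:**
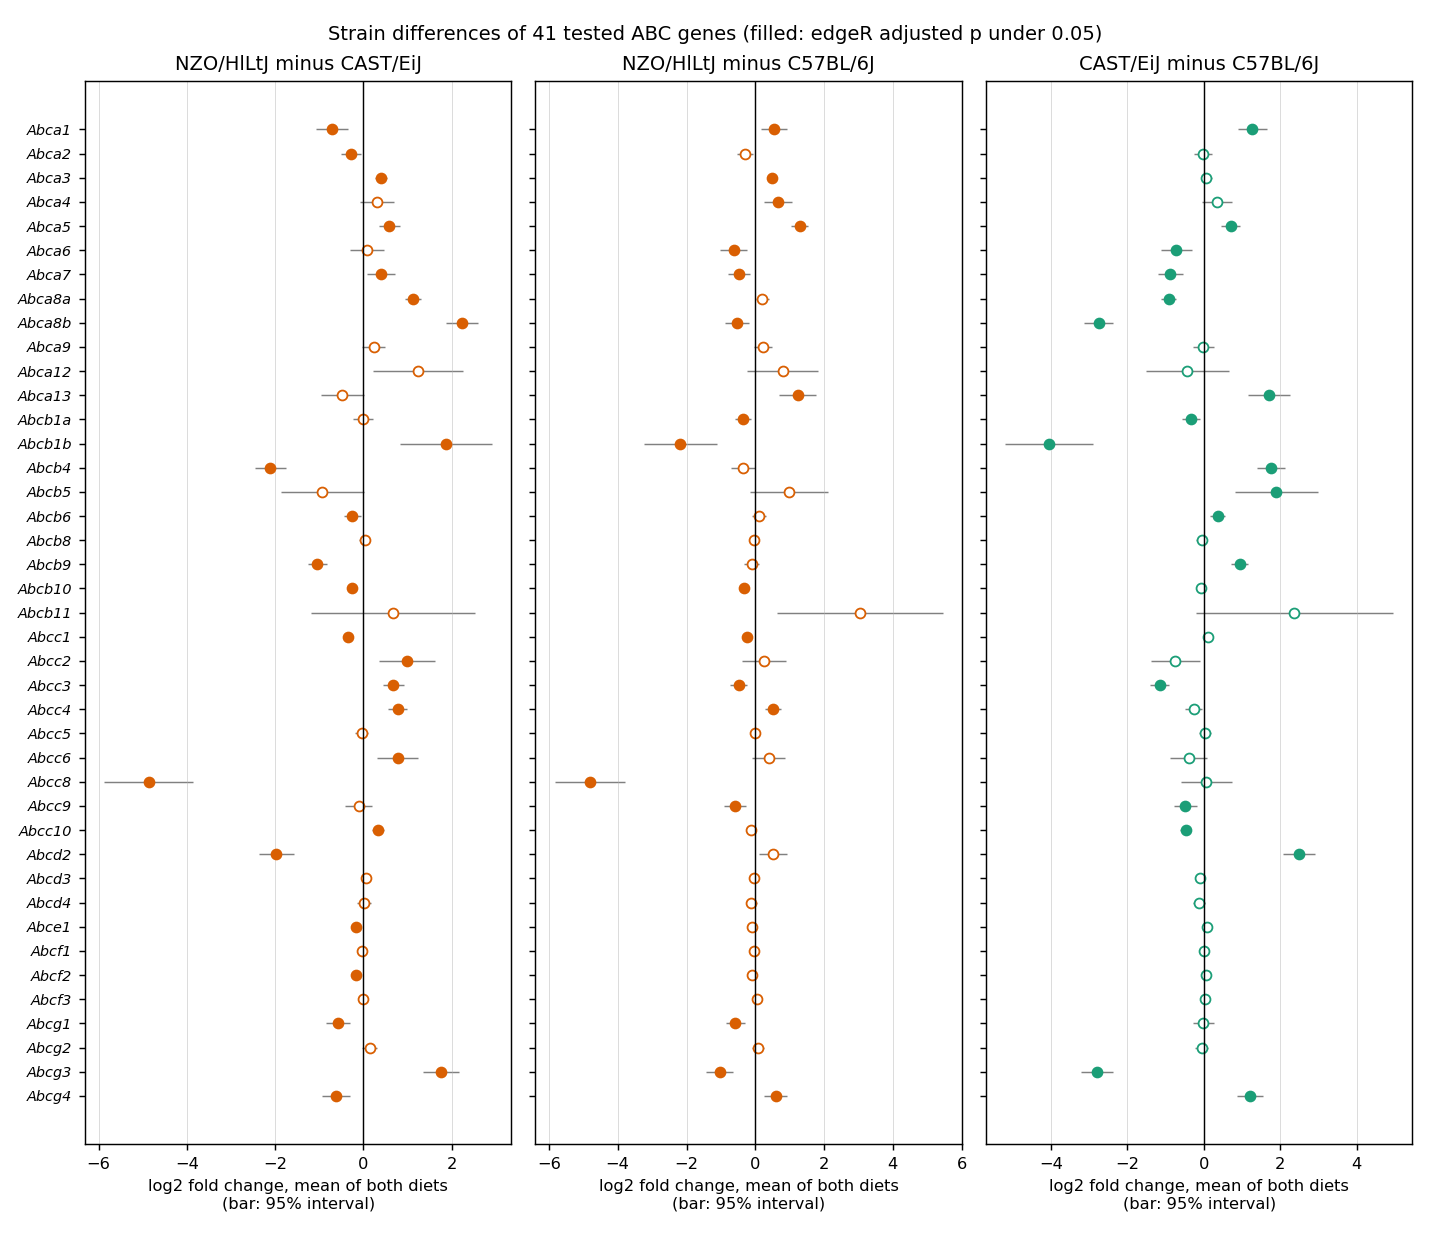
Log2 fold change between strains, averaged over both diets, for 41 of the 43 tested ABC genes. Bars are approximate 95% intervals, and each panel has its own horizontal axis. Filled points pass an edgeR adjusted p of 0.05: 25 of those drawn in NZO/HlLtJ minus CAST/EiJ, 19 in NZO/HlLtJ minus C57BL/6J and 19 in CAST/EiJ minus C57BL/6J.

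Abca8b, Abca8a, Abca9, Abca6 and Abca5 lie in that order on the minus strand of chromosome 11, between 109932190 and 110337716 in GRCm38, and their products are lipid-related transporters of little known substrate. Abca8b had 11.5, 10.6, 10.5 and 8.78 CPM in NZO/HlLtJ on 44% fat and 9.79, 9.43, 14.8 and 8.46 CPM on 10% fat. CAST/EiJ ovaries had Abca8b at 3.04, 2.74, 1.88 and 1.60 CPM on 44% fat and 1.69, 3.02, 1.74 and 2.21 CPM on 10% fat. C57BL/6J ovaries had Abca8b at 12.1, 15.5, 12.9 and 15.4 CPM on 44% fat and 21.9, 9.13 and 18.1 CPM on 10% fat. Every CAST/EiJ library was below every library of the other strains. The gene was 6.75-fold lower in CAST/EiJ than in C57BL/6J, at -2.76 ± 0.194 (adjusted p = 3.87e-10), and 4.68-fold higher in NZO/HlLtJ than in CAST/EiJ, at 2.23 ± 0.187 (adjusted p = 5.62e-09). Against C57BL/6J it was lower in NZO/HlLtJ, at -0.53 ± 0.182 (adjusted p = 0.0389), which 12 of 30 alternatives lost, with an adjusted p of up to 0.166.

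Its neighbours did not follow it as a block. Abca8a was at 41.6 to 57.9 CPM in NZO/HlLtJ, 19.2 to 30.8 CPM in CAST/EiJ and 36.9 to 59.5 CPM in C57BL/6J. It was lower in CAST/EiJ than in C57BL/6J, at -0.93 ± 0.0978 (adjusted p = 1.68e-07), and higher in NZO/HlLtJ than in CAST/EiJ, at 1.13 ± 0.0950 (adjusted p = 5.94e-09). Abca6 was lower in CAST/EiJ than in C57BL/6J, at -0.72 ± 0.202 (adjusted p = 0.00638), and in NZO/HlLtJ, at -0.63 ± 0.202 (adjusted p = 0.0276), where 5 of 30 alternatives lost the call, with an adjusted p of up to 0.0798. Abca9 did not pass, at -0.02 ± 0.137 (adjusted p = 0.937) and 0.22 ± 0.138 (adjusted p = 0.27). Abca5 was higher in both strains than in C57BL/6J, by 0.70 ± 0.129 in CAST/EiJ (adjusted p = 0.000158) and 1.29 ± 0.131 in NZO/HlLtJ (adjusted p = 3.28e-07). Its 3 strains did not overlap, at 42.5 to 59.6 CPM in NZO/HlLtJ, 28.3 to 39.1 CPM in CAST/EiJ and 14.7 to 27.9 CPM in C57BL/6J.

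The other A members that differed carry lipids in other tissues. Abca3, the phospholipid carrier of lung surfactant, was at 68.5 to 104 CPM in NZO/HlLtJ, 58.8 to 68.2 CPM in CAST/EiJ and 53.3 to 70.5 CPM in C57BL/6J. It was higher in NZO/HlLtJ than in C57BL/6J, at 0.47 ± 0.0730 (adjusted p = 6.38e-05), and than in CAST/EiJ, at 0.40 ± 0.0698 (adjusted p = 7.55e-05), and 9.75% of its exon bases overlap the opposite-strand gene D330041H03Rik. Abca4, the retinoid carrier of photoreceptors, was higher in NZO/HlLtJ than in C57BL/6J, at 0.66 ± 0.203 (adjusted p = 0.0225), and lost the call in 3 of 30 alternatives, among them without C57BL/6J 10% fat replicate 1 or 3, with an adjusted p of up to 0.0719. Abca7, a phospholipid transporter, was lower in CAST/EiJ than in C57BL/6J, at -0.87 ± 0.168 (adjusted p = 0.000253), with 34.9 to 58.4 CPM on 44% fat and 21.95 to 30.3 CPM on 10% fat in CAST/EiJ and 41.9 to 88.6 CPM in C57BL/6J. Abca13, a very large member of unknown substrate, was higher in CAST/EiJ, at 1.71 ± 0.277 (adjusted p = 3.83e-05), and in NZO/HlLtJ, at 1.23 ± 0.274 (adjusted p = 0.00241), than in C57BL/6J, with no more than 3.78 CPM in any library.

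Among the peroxisomal members Abcd2 (chr15:91145884-91191807, minus strand) was 5.62-fold higher in CAST/EiJ than in C57BL/6J, at 2.49 ± 0.218 (adjusted p = 1.59e-08). NZO/HlLtJ ovaries expressed Abcd2 at 34.8, 31.05, 31.3 and 23.5 CPM on 44% fat and 23.2, 24.03, 24.4 and 27.1 CPM on 10% fat, 3.93-fold lower than CAST/EiJ, at -1.98 ± 0.200 (adjusted p = 1.18e-07). C57BL/6J ovaries expressed it at 16.3, 23.6, 12.4 and 21.9 CPM on 44% fat and 18.8, 23.6 and 16.4 CPM on 10% fat. The CAST/EiJ values, given above for diet, were in all 8 libraries above every other library. Abcd2 is known as an adipose member. Of 10 adipocyte markers, 8 were higher and 1 lower in CAST/EiJ than in C57BL/6J, beside 23.2% and 23.6% of all genes. Lep and Retn were at 0 in some libraries of CAST/EiJ on 44% fat. The list summed to 167 to 688 CPM in CAST/EiJ on 44% fat and 127 to 2224 CPM on 10% fat. In C57BL/6J it summed to 166 to 991 CPM on 44% fat and 116 to 573 CPM on 10% fat. The part of adipocyte markers in the Abcd2 difference was not tested. Abcd3 did not pass in any strain comparison. Of 15 peroxisomal partners, 3 were higher and 5 lower in CAST/EiJ than in C57BL/6J, beside the same shares of all genes. They were led by the import factor Pex19 at -0.90 (adjusted p = 7.58e-09).

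Among the C members Abcc3 was lower in CAST/EiJ than in C57BL/6J, at -1.16 ± 0.127 (adjusted p = 2.64e-07), and in NZO/HlLtJ, at -0.48 ± 0.126 (adjusted p = 0.00808). It was at 11.1 to 17.8 CPM in NZO/HlLtJ, 4.32 to 11.2 CPM in CAST/EiJ and 13.6 to 25.5 CPM in C57BL/6J, so that the last 2 did not overlap. Abcc4, which exports cyclic nucleotides and prostaglandins, was higher in NZO/HlLtJ than in C57BL/6J, at 0.51 ± 0.115 (adjusted p = 0.00277), and than in CAST/EiJ, at 0.78 ± 0.110 (adjusted p = 7.85e-06), with 39.03 to 66.7, 24.9 to 38.7 and 32.6 to 47.9 CPM in NZO/HlLtJ, CAST/EiJ and C57BL/6J. Abcc1, a pump for glutathione conjugates, was lower in NZO/HlLtJ than in C57BL/6J, at -0.23 ± 0.0623 (adjusted p = 0.00919), and than in CAST/EiJ, at -0.35 ± 0.0600 (adjusted p = 6.77e-05). Abcc10, a drug pump, was lower in CAST/EiJ than in C57BL/6J, at -0.47 ± 0.0739 (adjusted p = 2.62e-05), and higher in NZO/HlLtJ than in CAST/EiJ, at 0.33 ± 0.0712 (adjusted p = 0.000647).

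The C subfamily also holds the sulfonylurea receptors, which gate potassium channels. Abcc8, the receptor of pancreatic beta cells, was below 1 CPM in every group, so it was chosen for mention after its values were seen. NZO/HlLtJ libraries held 0, 3, 1 and 2 counts of Abcc8 on 44% fat and 0, 0, 0 and 0 counts on 10% fat. CAST/EiJ libraries held 12, 8, 24 and 10 counts on 44% fat and 11, 14, 9 and 16 on 10% fat, and C57BL/6J libraries held 14, 10, 16 and 14 on 44% fat and 16, 14 and 6 on 10% fat. NZO/HlLtJ overlapped with neither other strain, and was called lower than C57BL/6J (adjusted p = 2.60e-06) and lower than CAST/EiJ (adjusted p = 5.48e-07). Abcc8 passed the filter on low counts only through libraries of those 2 strains. The calls and the lack of overlap are thus no separate evidence beside the counts shown. Abcc9, the receptor of smooth muscle and pericytes, was at 43.9 to 80.1 CPM in NZO/HlLtJ, 50.3 to 84.4 CPM in CAST/EiJ and 54.4 to 131 CPM in C57BL/6J. It was lower in NZO/HlLtJ, at -0.59 ± 0.158 (adjusted p = 0.00938), and in CAST/EiJ, at -0.48 ± 0.158 (adjusted p = 0.0163), than in C57BL/6J, and without C57BL/6J 10% fat replicate 1 the second call was lost, at -0.37 (adjusted p = 0.0736). In NZO/HlLtJ against C57BL/6J, 7 of 10 pericyte and smooth muscle markers were lower, with a median of -0.76, beside 12.3% of all genes lower. These markers summed to 1041 to 1181 CPM on 44% fat and 1121 to 1161 CPM on 10% fat in NZO/HlLtJ. In C57BL/6J the sums were 1534 to 1974 and 1506 to 2523 CPM. Their part in the Abcc9 difference was not tested, and Kcnj8, the channel partner of Abcc9, was at -0.06 (adjusted p = 0.752).

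Of the organelle members of subfamily B, Abcb9, the lysosomal peptide carrier, was higher in CAST/EiJ than in C57BL/6J, at 0.94 ± 0.111 (adjusted p = 7.88e-07). It was at 2.31 to 3.93 CPM in NZO/HlLtJ, 5.72 to 7.67 CPM in CAST/EiJ and 2.45 to 4.43 CPM in C57BL/6J, and CAST/EiJ overlapped with neither. The antigen peptide carriers Tap1 and Tap2, ABC genes named outside the symbol pattern, were lower in CAST/EiJ than in C57BL/6J, at -0.77 (adjusted p = 2.41e-05) and -0.42 (adjusted p = 0.0119). Their list of 7 tested peptide loading and ABC genes had 2 higher and 3 lower, beside 23.2% and 23.6% of all genes. Abcb10, a mitochondrial member that aids heme synthesis, was lower in NZO/HlLtJ than in C57BL/6J, at -0.32 ± 0.0614 (adjusted p = 0.000571), with 17.3 to 21.9 CPM in NZO/HlLtJ and 22.4 to 25.6 CPM in C57BL/6J, and 10.3% of its exon bases overlap the opposite-strand gene Gm45890. Abcb6, a porphyrin carrier, was higher in CAST/EiJ than in C57BL/6J, at 0.36 ± 0.103 (adjusted p = 0.00623), but 55.2% of its exon bases overlap the same-strand gene Gm29253. Abcb8 did not pass in any strain comparison.

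The translation members varied little. Abce1, which splits ribosomes after translation ends, and Abcf1, Abcf2 and Abcf3 did not pass between CAST/EiJ and C57BL/6J or between NZO/HlLtJ and C57BL/6J, with log2 fold changes between -0.11 and 0.07. Abce1 was at 139 to 175 CPM in NZO/HlLtJ, 158 to 195 CPM in CAST/EiJ and 154 to 188 CPM in C57BL/6J. Of 9 tested translation and ribosome recycling partners of Abce1 and the F members, 5 were higher and 0 lower in CAST/EiJ than in C57BL/6J. Of all genes, 23.2% were higher and 23.6% lower in that comparison. Gspt2 was at 0.23 (adjusted p = 0.0195) and Eif2ak4 at 0.23 (adjusted p = 0.00172). Abce1 and Abcf2 were lower in NZO/HlLtJ than in CAST/EiJ, at -0.16 ± 0.0574 (adjusted p = 0.028) and -0.17 ± 0.0540 (adjusted p = 0.0148), and 9 of 30 alternatives lost the call of Abce1, with an adjusted p of up to 0.0925.

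The remaining members are given by their values in brief. Abcc2, an apical pump for conjugates, had 1.79, 2.05, 1.49 and 0.798 CPM in NZO/HlLtJ on 44% fat and 9.24, 2.29, 1.87 and 6.28 CPM on 10% fat, with a log2 fold change of -1.69 ± 0.454 (adjusted p = 1, unadjusted p = 0.00135), and it was higher in NZO/HlLtJ than in CAST/EiJ, at 0.99 ± 0.320 (adjusted p = 0.0148). Without NZO/HlLtJ 10% fat replicate 1, the NZO/HlLtJ library with the most Abcc2, that call was lost, at 0.74 (adjusted p = 0.0511). Abcb5, Abcb11 and Abcc6, all under 1 CPM in every group, were singled out after their values were seen. Abcb5 was called higher in CAST/EiJ than in C57BL/6J, at 1.90 ± 0.555 (adjusted p = 0.00797). Abcc6 was called higher in NZO/HlLtJ than in CAST/EiJ, at 0.78 ± 0.237 (adjusted p = 0.00998). Both calls rest on few reads, with 200 counts of Abcb5 and 627 of Abcc6 in all 23 libraries together. Abcb11 reached 0 to 3.80 CPM in CAST/EiJ on 10% fat, with its top value in replicate 2, the library with the highest oviduct marker sum. Abca2, a lipid carrier of lysosomes and myelin, was lower in NZO/HlLtJ than in CAST/EiJ, at -0.28 ± 0.112 (adjusted p = 0.0464), as was Abcb6, at -0.25 ± 0.0980 (adjusted p = 0.0408), while Abca7 was higher, at 0.40 ± 0.162 (adjusted p = 0.0475). These calls were lost in 16, 14 and 17 of 30 alternatives. Abca7 was also lower in NZO/HlLtJ than in C57BL/6J, at -0.47 ± 0.167 (adjusted p = 0.0446), which 19 of 30 alternatives lost.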

How the data were processed

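RNA-seq libraries of ovary (poly(A) RNA, 100-base read pairs, per the labels' protocols) were used. The authors deposited expected counts per gene, of which 27.4% were not whole numbers, and log2 variance-stabilised values. The genome GRCm38 and DESeq2 are named in the submitters' processing notes. The aligner, strand setting and use of strain-specific genomes are not given in the sources used here.

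Counts were rounded and tested with edgeR 4.0.16 (quasi-likelihood, R 4.3.3) in 1 fit of the 6 groups with TMM scaling, over 20189 genes kept by filterByExpr (minimum count 10, minimum total 15), with Benjamini-Hochberg adjustment over all of them. CPM are TMM-scaled, and CPM per kb used GENCODE M21 exon lengths. The SE of a log2 fold change is its absolute value divided by the square root of the F statistic of edgeR's test. The 95% intervals drawn span 1.96 SE on either side, a normal multiplier, so they are approximate. Groups came from the sample titles. The common biological coefficient of variation was 0.268, and all 33 pairs of libraries within groups differed by more than sampling noise. Alternatives were DESeq2 1.42.0, limma 3.58.1 on the deposited log2 values, other scalings and filters, the identifier series as a term, only the groups compared, and each library left out. The scripts were tested on simulated data.

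The members, the lists of partner and marker genes and the tests were chosen with earlier results of these data known. Named members were Abcb1a, Abcb1b, Abca1, Abcg1, Abcg4, Abcg5, Abcg8 and, per comparison, up to 8 in each direction with the smallest adjusted p among those called with a group mean of at least 1 CPM. Up to 4 genes of a partner list were named per comparison. Values in every library are given for members that the results turn on, and ranges for the others. The counts cover all members, of which 2 are not reported here singly and are left out of the figures.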

Additional observations from a re-analysis of the deposited data

Results flagged for a closer look

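In the named members, 10 of 135 groups of 4 libraries held a library whose gap to the nearest other was a larger share of the group's range than Dixon's 95% critical value. That is 7.41% of groups, and chance flags about 1 in 20. CAST/EiJ 44% fat replicate 2 was the high library for Abcg1, at 57.3 CPM against 29.8 to 32.5 CPM in the others of its group, for Abcg3, at 1.74 against 0.701 to 0.851 CPM, and for Abca13, at 3.78 against 1.51 to 1.80 CPM. This library also had the highest macrophage sum of its group, whose part in these values was not tested. CAST/EiJ 10% fat replicate 2, with the highest oviduct marker sum, had 1944 CPM of Abca1, against 937 to 1049 CPM. NZO/HlLtJ 44% fat replicate 3 was low for Abca1, at 503 CPM against 915 to 999 CPM, and replicate 2 of that group was low for Abcc1, at 52.1 against 58.1 to 59.1 CPM. In C57BL/6J on 44% fat, replicate 4 was high for Abca8a, at 48.2 against 42.6 to 43.3 CPM, and low for Abcc4, at 34.2 against 40.4 to 41.7 CPM, and replicate 2 was high for Abcb10, at 25.6 against 22.8 to 23.03 CPM. NZO/HlLtJ 10% fat replicate 2 was high for Abcg8, at 0.229 against 0.0217 to 0.0524 CPM, a difference of a few counts.

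The diet effects of CAST/EiJ and C57BL/6J differed by a test of the difference itself for Abcb1b, at 6.12 on the log2 scale, and for Abcg3, at 2.36. For Abcb1b, all 4 CAST/EiJ libraries on 44% fat were above all 4 on 10% fat, while the C57BL/6J diet groups overlapped through 10% fat replicate 2.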

How the results depend on the processing

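The count of members called for diet in CAST/EiJ was 3. By limma on the deposited log2 values it was 1, Abcg1, with the calls of Abcb1b and Abcg3 lost. It was 0 with only the groups compared in the fit, and 2 to 3 with 1 library left out. For diet in C57BL/6J it was 0, and 0 to 1 with 1 library left out, the 1 being Abcb1a without 10% fat replicate 2. For the difference in diet effect between CAST/EiJ and C57BL/6J it was 2, and it was 6 by DESeq2, 0 by limma, 1 with the identifier series as a term, 0 with only the groups compared, 0 without both libraries high in oviduct markers (chosen after seeing the data), and 0 to 6 with 1 library left out. Abcb1b lost that call without C57BL/6J 10% fat replicate 1, C57BL/6J 44% fat replicate 1, 2 or 3, or CAST/EiJ 10% fat replicate 1, and Abcg3 without C57BL/6J 10% fat replicate 1 or C57BL/6J 44% fat replicate 1 or 2. For NZO/HlLtJ minus CAST/EiJ diet effects it was 0, and 2 by DESeq2. Counts between strains stayed within 1.5 times under the 30 alternatives run. Over single members and comparisons, 3078 of 3234 alternatives kept the side of the threshold, 151 lost a call and 5 gained one. In 0 of them did a called value change direction. The 3234 include alternatives for members not called in a comparison, which could gain a call but not lose one. They also include fits that left out a library of a strain not compared. Their total is thus no measure of how stable the calls were. Values that were not called could change sign, such as Abca1 for diet in NZO/HlLtJ, from -0.23 to 0.17. Smaller fits and left-out libraries use fewer samples; for the other settings the cause was not tested. Depth limits Abcg5 and Abcg8. No paired analysis was possible because the labels carry no replicate numbers, and the numbers used follow the order of deposit.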
